A study of Mus musculus with 8 samples.

Results

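The Kruppel-like factors described here are 9 genes, Klf2, Klf3, Klf4, Klf6, Klf9, Klf10, Klf13, Klf15 and Klf16, taken by gene symbol from the 18846 genes counted in mouse adrenal glands. All 9 were found and all 9 passed the filter on low counts. Kruppel-like factors are transcription factors that bind GC-rich and CACCC sequences through a C-terminal block of C2H2 zinc fingers, a domain they share with the Sp factors. Their N-terminal parts differ and recruit either activators such as p300 or repressors such as Sin3a and CtBP. Several are early response genes, others are targets of the glucocorticoid receptor, and in the adrenal, where adrenocorticotropic hormone (ACTH) acts through cAMP to drive corticosterone synthesis, early response genes are known to be induced within an hour.

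RNA was sequenced from 8 glands, 1 per animal, in 4 groups of 2 animals, 1 labelled male and 1 labelled female. The groups were Siah1a -/- mice given ACTH, untreated Siah1a -/- mice, wild-type mice given ACTH and untreated wild-type mice, all of strain 129SVEV. Siah1a -/- animals, called KO below, are homozygous knockouts of the E3 ubiquitin ligase Siah1a; the labels name no tissue-specific driver and give no ages. ACTH was injected into the peritoneum at 100 µg/kg and the gland taken after 1 hour. Control mice had no treatment, and the labels mention no injection of vehicle, so effects of handling and of ACTH cannot be told apart.

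The libraries held 8020111 to 29568950 estimated counts. Siah1a itself was still counted in the KO, at 19.0 and 17.4 CPM after ACTH and 25.2 and 21.2 CPM untreated (labelled male, then female), against 33.1 and 32.4 CPM after ACTH and 26.3 and 26.1 CPM untreated in wild type; CPM are counts scaled to the effective library size. The KO levels lay below all wild-type ones, and which bases the allele removes is not stated in the labels. All 8 markers of the adrenal cortex and all 7 of chromaffin cells were counted in every library. The wild-type untreated library labelled male held the kidney transcript Slc34a1 at 600 CPM, against at most 0.493 CPM elsewhere. It also held Xist at 388 CPM and 3.06 CPM of 4 Y-linked genes, where the other libraries labelled male held 490 to 605 CPM of those genes. The wild-type ACTH library labelled female held albumin (Alb) at 34060 CPM, against at most 358 CPM elsewhere. The first of the 2 libraries kept its male label in all fits and matched pairs. Main values are also given without both libraries. The wild-type ACTH library labelled female also held 23.5 CPM of the 4 Y-linked genes, against 0 to 3.91 CPM in the others labelled female. In the wild-type ACTH library labelled male, Xist stood at 31.8 CPM, against 4.05 and 5.98 CPM in the KO libraries labelled male. The source of these transcripts was not tested.

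In GRCm38, the assembly of the authors' mm10, the 9 genes lie on 9 chromosomes. The 4 that the results turn on are Klf4 (chr4:55527137-55532475, minus strand), Klf6 (chr13:5861489-5870393, plus strand), Klf15 (chr6:90461043-90491803, plus strand) and Klf16 (chr10:80567121-80577296, minus strand). The deposited counts are per RefSeq transcript of these genes.

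On the length-scaled RPKM level, Klf9 stood first among the 17 Klf genes in the files, at 35.9 ± 9.26 RPKM (SD, n = 8). Klf9, a repressor induced by glucocorticoids and thyroid hormone, was above the second gene, Klf4, in 5 of 8 libraries. Klf4 averaged 27.7 ± 30.2 RPKM and spanned 3.24 to 94.2 RPKM, the widest span of the family. Klf6 followed at 23.7 ± 10.7 RPKM, and Klf13, Klf2, Klf15 and Klf10 lay between 13.1 and 10.3 RPKM with spreads that overlapped. Klf3 averaged 7.69 ± 0.898 RPKM and Klf16 4.29 ± 2.05 RPKM. Klf4 changed place most between libraries. It ranked 3 and 1 of the 9 in the KO glands given ACTH (labelled male, then female) and 4 and 8 in untreated KO glands, and 1 in both wild-type glands given ACTH and 8 in both untreated ones. Of the 8 Klf genes outside the 9, Klf11 (5.12 ± 1.93 RPKM) lay above Klf16. Klf1, Klf8, Klf14 and Klf17 each averaged at most 0.342 RPKM, had between 3 and 6 libraries at 0, and did not pass the filter.

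**Figure D1:**
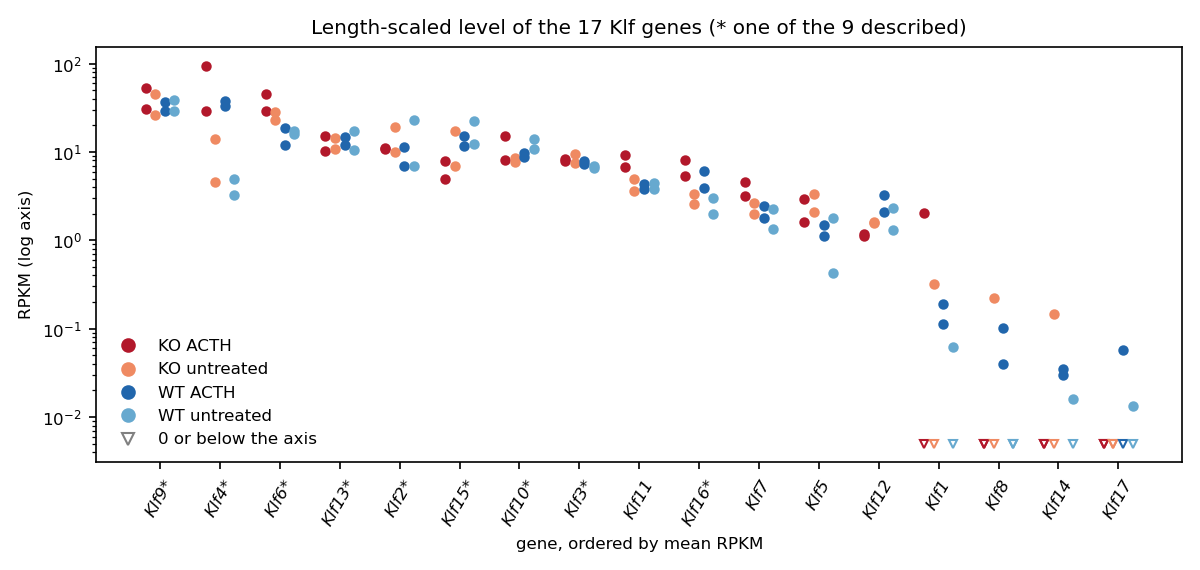
RPKM of the 17 Klf genes in each library on a log axis, genes ordered by mean RPKM, colours for the 4 groups, open triangles for values of 0; starred genes are the 9 described. Klf4 spans 3.24 to 94.2 RPKM and separates the ACTH from the untreated libraries, while Klf3 spans 6.58 to 9.43 RPKM.

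The first question was which of the 9 differed 1 hour after ACTH, over both genotypes. Klf4 and Klf16 were higher in all 4 ACTH libraries than in any untreated one, and the other 7 genes overlapped between the arms. This pattern, no overlap with ACTH higher, was met by 2.1% of all 15361 tested genes (3.89% for either direction), and by 2 of these 9. Fitted changes were above 0 for 7 of the 9, with a median of 0.12 on the log2 scale, against 52.2% and a median of 0.02 over all genes. None of the 9 passed edgeR's quasi-likelihood test at a Benjamini-Hochberg adjusted p under 0.05, which called 0.0195% of all tested genes (3 genes, all higher). At an unadjusted p under 0.05 the test took 2 of the 9, against 6.11% of all genes. DESeq2 called 1 of the 9 (Klf4, higher), against 0.579% of all genes called higher (0.801% in either direction), and limma-voom called 0 of the 9 and 0.0195% of all genes.

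Klf4 is an early response gene that controls differentiation of epithelial and endothelial cells and is also a reprogramming factor of stem cells. It stood at 107 and 335 CPM in KO glands given ACTH and 52.0 and 16.1 CPM in untreated KO glands (labelled male, then female). In wild type it stood at 136 and 131 CPM after ACTH and 16.9 and 11.3 CPM untreated. Every ACTH library was above every untreated one, and the closest were the 2 KO libraries labelled male. The arms averaged 177 ± 106 CPM after ACTH and 24.1 ± 18.8 CPM untreated (SD, n = 4 each), a log2 fold change of 3.04 (SE 0.498) or 8.23-fold. The unadjusted p was 0.000322 and the adjusted p 0.381 in edgeR, 8.63e-10 in DESeq2 and 0.141 in limma-voom. The ratio differed widely between pairs matched for genotype and sex label. It was 2.07 and 20.8 in the KO pairs and 8.03 and 11.6 in the wild-type pairs. The low ratio belonged to the pair whose untreated gland, KO labelled male, held 52.0 CPM, and the high ratio to the KO ACTH gland labelled female. Without the 2 libraries that held kidney or liver transcripts the log2 fold change was 3.0. Over single libraries left out it ranged from 2.64 to 3.51, the highest being without the KO ACTH library labelled male.

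The Klf4 start region is shown because it belongs to the gene with the widest difference after ACTH and holds the core of the cAMP response element. The letters searched were TGACG and its complement CGTCA on both strands. The sequence runs from 250 bases before to 50 bases after the RefSeq start (GRCm38.p6, chr4:55532426-55532725, minus strand), with the match in capitals.
Klf4 promoter: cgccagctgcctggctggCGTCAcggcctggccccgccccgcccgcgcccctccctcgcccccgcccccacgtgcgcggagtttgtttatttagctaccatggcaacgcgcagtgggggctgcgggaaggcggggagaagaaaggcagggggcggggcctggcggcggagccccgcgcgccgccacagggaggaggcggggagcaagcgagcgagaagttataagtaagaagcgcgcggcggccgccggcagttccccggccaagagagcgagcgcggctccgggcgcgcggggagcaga
One match to the core site lay here, and no match to the full palindrome TGACGTCA. Of the 7 members with a RefSeq promoter in the table used, 6 held at least 1 core site (Klf2, Klf3, Klf4, Klf9, Klf13 and Klf15), and Klf6 held none. The core site occurred in 20.8% of all 32851 promoter windows and the full site in 1.79%, and none of the 7 held the full site. These 7 windows were 63.0% to 76.7% G and C, against a median of 52.7%, and the core site contains a CG. The members with a core site include Klf3, Klf9 and Klf13, whose log2 fold changes after ACTH were 0.12, 0.17 and 0.06. The Klf4 window also held 4 matches to the GC box GGGCGG, the kind of sequence that Klf and Sp proteins bind, which occurred in 35.7% of all windows. A match is a run of letters and not a shown binding site. Klf10 and Klf16 were not in the promoter table.

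Klf16, a repressor that binds Sin3a and had the lowest mean RPKM of the 9 in these glands, was the second gene without overlap. It stood at 17.2 and 24.9 CPM in KO glands given ACTH and 10.7 and 7.96 CPM in untreated KO glands (labelled male, then female). In wild type it stood at 19.0 and 13.5 CPM after ACTH and 5.88 and 9.09 CPM untreated. The groups separated in both genotypes, with a gap of 13.5 to 10.7 CPM between the arms. The means were 18.6 ± 4.76 CPM after ACTH and 8.41 ± 2.02 CPM untreated (SD, n = 4 each), a log2 fold change of 1.14 (SE 0.341) or 2.21-fold. Its unadjusted p was 0.0104 and its adjusted p 0.719 in edgeR, 0.194 in DESeq2 and 0.5 in limma-voom. Without the 2 libraries with kidney or liver transcripts the log2 fold change was 1.15. The lowest Klf16 level, 5.88 CPM, belonged to the untreated library with kidney transcripts. Over the 8 libraries Klf16 and Klf4 went together with a Pearson correlation of log2 CPM of 0.92, the highest among the 36 pairs of members; the libraries share the ACTH contrast and their depth, and no p is given.

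**Figure D2:**
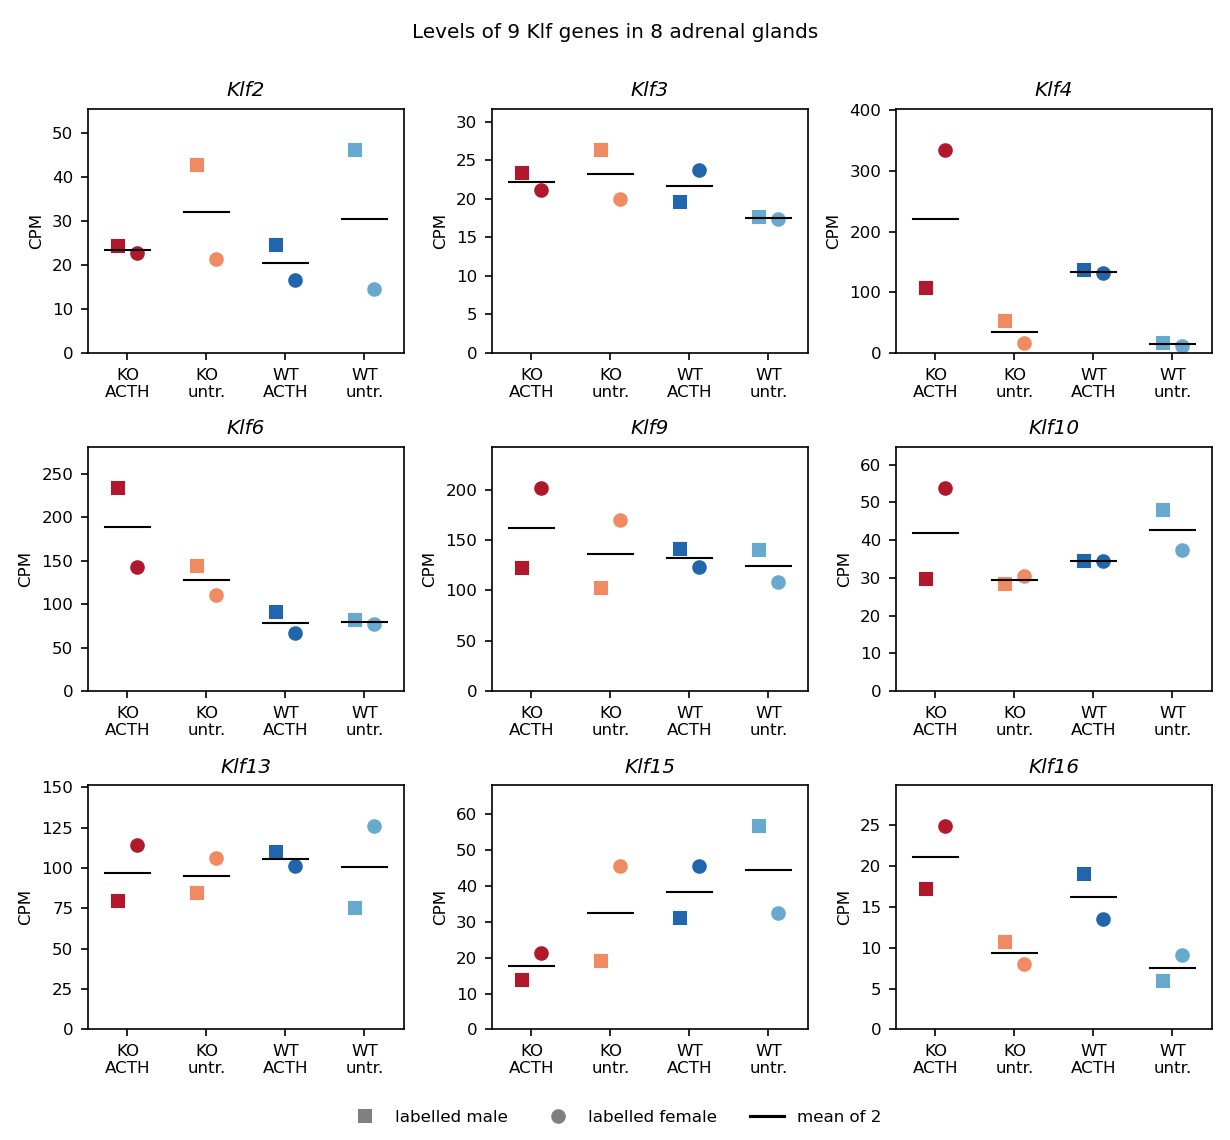
CPM of the 9 genes in each of the 8 glands, one panel per gene, with KO given ACTH, untreated KO, wild type given ACTH and untreated wild type from left to right; squares are animals labelled male, circles animals labelled female, lines the mean of 2. Klf4 and Klf16 separate by treatment, and Klf6 separates by genotype.

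The 7 other members lay between log2 fold changes of -0.57 and 0.25 after ACTH. Klf6, an activator expressed early after many stimuli, averaged 134 ± 74.2 CPM after ACTH and 104 ± 30.9 CPM untreated (log2 fold change 0.25, SE 0.177). Klf10, first described as a gene induced early by TGF-beta, averaged 38.2 ± 10.7 CPM after ACTH and 36.1 ± 8.89 CPM untreated. Neither differed beyond the spread of its arms. Klf10 counts came almost wholly from 1 of its 2 listed transcripts, the other being estimated at 7.46 counts in the wild-type ACTH library labelled male and at under 1 count in the other 7. Klf9 averaged 147 ± 37.8 CPM after ACTH and 130 ± 31.1 CPM untreated, with pair ratios of only 1.00 to 1.19 and a log2 fold change of 0.17 (SE 0.218). Klf13, another Sin3a-binding repressor, averaged 101 ± 15.3 CPM after ACTH and 97.9 ± 22.7 CPM untreated. Klf3, which represses through CtBP, averaged 21.9 ± 1.90 CPM after ACTH and 20.4 ± 4.21 CPM untreated. In GENCODE M21 an antisense RNA, Gm20033, shares 404 of the 11243 exon bases of Klf3, and since no source used here says whether counting used strand, reads of the 2 cannot be told apart there. Klf15 averaged 27.9 ± 13.6 CPM after ACTH and 38.4 ± 16.3 CPM untreated (log2 fold change -0.57, SE 0.332).

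Klf2 keeps endothelial cells quiescent and is induced by flow through the kinase ERK5 and the MEF2 factors. It stood at 24.3 and 22.7 CPM in KO glands given ACTH and 42.8 and 21.4 CPM in untreated KO glands (labelled male, then female). In wild type it stood at 24.5 and 16.5 CPM after ACTH and 46.3 and 14.6 CPM untreated. Both untreated libraries labelled male were thus high, and the remaining 6 lay between 14.6 and 24.5 CPM. One of the 2 is the library with kidney transcripts, whose Xist level went against its label, so the 2 do not share the sex shown by their transcripts. The log2 fold change after ACTH was -0.37 (SE 0.282, edgeR adjusted p = 0.9), and -0.21 (SE 0.308) without the 2 libraries with kidney or liver transcripts. The Klf2 start region (GRCm38.p6, chr8:72318812-72319111, plus strand) is shown because it holds a match to the MEF2 consensus, the longer run of capitals, besides 1 core site TGACG, the shorter one.
Klf2 promoter: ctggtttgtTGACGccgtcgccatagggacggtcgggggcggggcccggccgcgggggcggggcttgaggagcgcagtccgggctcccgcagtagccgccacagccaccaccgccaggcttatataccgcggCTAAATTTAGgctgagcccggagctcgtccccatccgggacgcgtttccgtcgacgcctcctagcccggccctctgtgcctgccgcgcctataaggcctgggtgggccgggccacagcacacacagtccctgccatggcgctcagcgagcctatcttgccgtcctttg
The MEF2 consensus matched in 1047 of the 32851 windows, or 3.19%, and in none of the other 6 members' windows. Of 7 genes of the ERK5 to MEF2 axis, all tested, 0 passed in either comparison, and their median log2 fold change was 0.05 after ACTH, against 0.02 over all genes, and 0.13 in the KO, against -0.04. The most abundant were Mef2d, at 111 ± 15.3 CPM after ACTH and 101 ± 14.6 CPM untreated, and Mef2a, at 105 ± 13.6 CPM after ACTH and 94.6 ± 18.3 CPM untreated.

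The second question was which of the 9 differed in the KO, over both treatments. Klf6 was higher in all 4 KO libraries than in any wild-type one, Klf15 was lower in 3 of 4 matched pairs with arms that overlapped, and the other 7 overlapped with log2 fold changes of -0.15 to 1.01. No overlap with the KO higher was seen in 4.21% of all tested genes (8.92% for either direction) and in 1 of these 9. Fitted changes were above 0 for 6 of the 9, with a median of 0.21, against 46.5% and a median of -0.04 over all genes. None of the 9 passed in edgeR, which called 0.026% of all genes (4 genes). At an unadjusted p under 0.05 it took 2 of the 9, against 13.4% of all genes. Klf6 was called higher by DESeq2, along with 2.3% of all genes (6.41% in either direction), and by limma-voom, along with 0.332% (0.703% in either direction). The KO and the ACTH comparison use the same 8 libraries. In bulk tissue, fewer cells of a type and less RNA per cell cannot be told apart.

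Klf6 stood at 234 and 143 CPM in KO glands given ACTH and 144 and 111 CPM in untreated KO glands (labelled male, then female). In wild type it stood at 91.2 and 66.7 CPM after ACTH and 81.7 and 77.1 CPM untreated. The 4 wild-type levels lay close together and the lowest KO level was above all of them. The means were 158 ± 52.9 CPM in the KO and 79.2 ± 10.2 CPM in wild type (SD, n = 4 each), a log2 fold change of 0.95 (SE 0.178) or 1.94-fold. The unadjusted p was 0.000745, and the adjusted p 0.106 in edgeR, 0.000342 in DESeq2 and 0.0455 in limma-voom. All 4 matched pairs had the KO higher, by 1.76 and 1.45 times untreated and by 2.57 and 2.15 times after ACTH. Without the 2 libraries with kidney or liver transcripts the log2 fold change was 0.85. Over single libraries left out it ranged from 0.8 to 1.10, the highest being without the wild-type untreated gland labelled female.

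The summed levels of 3 marker lists were also higher in 3 of 4 KO libraries than in all wild-type ones. These were chromaffin cells, cortex, and neurons with Schwann cells, and in each the KO ACTH gland labelled female was the exception. The summed level of the 7 chromaffin markers, none at 0, was 6543 and 1830 CPM in KO glands given ACTH and 7489 and 6127 CPM in untreated KO glands, against 4066 and 2513 CPM after ACTH and 2040 and 2826 CPM untreated in wild type. The 8 cortex markers, none at 0, summed to 59441 and 42070 CPM in KO glands given ACTH and 53946 and 49200 CPM in untreated KO glands, against 44281 and 35175 CPM after ACTH and 28377 and 47636 CPM untreated in wild type. The lowest wild-type cortex sums, 28377 and 35175 CPM, belonged to the libraries with kidney and liver transcripts. The other wild-type sums, 44281 and 47636 CPM, lay within the KO range. Not every cortex marker followed the sum. Star, Cyp11a1 and Nr5a1 were highest in a wild-type library, and the other cortex markers in a KO library. The 6 neuron and Schwann markers summed to 259 and 34.4 CPM in KO glands given ACTH and 55.9 and 52.0 CPM in untreated KO glands, against 40.1 and 28.3 CPM after ACTH and 37.3 and 38.9 CPM untreated in wild type, with S100b at 0 in the first and Sox10 at 0 in the wild-type untreated gland labelled male. The gland with 259 CPM, KO given ACTH and labelled male, also had the highest Klf6, 234 CPM, and the KO ACTH gland labelled female, with the lowest chromaffin sum, had 143 CPM of Klf6. Endothelial markers (10 of 10 counted in every library) summed to 530 to 828 CPM in the KO and 456 to 744 CPM in wild type, overlapping. The part of these cell types in the Klf6 levels was not tested.

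The Klf6 start region is shown as that of the member that separated by genotype.
Klf6 promoter: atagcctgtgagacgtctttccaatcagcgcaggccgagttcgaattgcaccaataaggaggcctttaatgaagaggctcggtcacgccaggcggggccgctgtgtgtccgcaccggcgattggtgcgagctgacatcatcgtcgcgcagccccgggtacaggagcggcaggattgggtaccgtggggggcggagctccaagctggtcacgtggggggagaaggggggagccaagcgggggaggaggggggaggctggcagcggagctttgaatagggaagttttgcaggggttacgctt
It covers the RefSeq start (GRCm38.p6, chr13:5861239-5861538, plus strand) and has no capitals, since neither the core site TGACG nor the MEF2 consensus matched on either strand. It held 1 GC box GGGCGG and no CACCC box, searched as CCACCC, which 31.5% of all windows held. The Klf2, Klf3 and Klf13 windows held the CACCC letters and the Klf4, Klf9 and Klf15 windows did not. No window of the 7 matched the full palindromic glucocorticoid response element, which 3 of the 32851 windows held.

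Klf15, a regulator of gluconeogenesis and amino acid breakdown in liver and muscle and a target of the glucocorticoid receptor, lay lower on average in the KO. It stood at 13.9 and 21.4 CPM in KO glands given ACTH and 19.1 and 45.6 CPM in untreated KO glands (labelled male, then female). In wild type it stood at 31.1 and 45.4 CPM after ACTH and 56.7 and 32.3 CPM untreated. The untreated KO gland labelled female was within the wild-type range, and the other 3 KO glands were below it. The means were 25.0 ± 14.1 CPM in the KO and 41.4 ± 12.1 CPM in wild type (SD, n = 4 each), a log2 fold change of -0.87 (SE 0.338; unadjusted p = 0.0338 and adjusted p = 0.322 in edgeR). The highest level belonged to the library with kidney transcripts, and the second highest wild-type level, 45.4 CPM, to the library with liver transcripts. Without both libraries the log2 fold change was -0.52, and the fitted untreated comparison was 0.34, against -0.60 with them. Untreated wild type was then 1 gland, labelled female, at 32.3 CPM. The untreated KO glands stood at 45.6 CPM (labelled female) and 19.1 CPM (labelled male), so the sign depends on the sex label term. After ACTH, where the KO was lower in both pairs, the log2 fold change was -1.12 with both libraries and -1.32 without them. Klf15 and Klf6 ran opposite over the 8 libraries, with a Pearson correlation of -0.85.

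Of 10 genes of amino acid and glucose metabolism linked to Klf15, 0 passed in the KO comparison; 8 had a lower mean in the fit and the median log2 fold change was -0.71, against -0.04 over all genes. At an unadjusted p under 0.05, 2 of the 10 were lower, against 13.4% of all genes in either direction. The lowest p of the 10 was that of Gpt2, at a log2 fold change of -2.19 (SE 0.306, unadjusted p = 0.000112 and adjusted p = 0.0796 in edgeR). Gpt2 averaged 30.2 ± 16.8 CPM in the KO and 131 ± 36.1 CPM in wild type. The most abundant, Pck1 and Oat, averaged 457 ± 498 and 195 ± 27.7 CPM in the KO and 1159 ± 757 and 201 ± 41.1 CPM in wild type. Pck1 encodes the cytosolic enzyme that commits carbon to gluconeogenesis, and Oat a mitochondrial aminotransferase of ornithine. Both are also expressed in kidney and liver, whose transcripts were in 2 of the wild-type libraries. Without those 2 libraries the median was -0.27, against -0.09 over all genes, with 7 of the 10 lower, and the log2 fold change of Pck1 was -0.54 (SE 0.652), against -1.48 with them. After ACTH the list did not move with Klf15, which was at -0.57. There 7 of the 10 had a higher fitted mean, with a median of 0.39 against 0.02 over all genes, and 0 passed. At an unadjusted p under 0.05 in edgeR, 2 of the 10 were higher, against 6.11% of all genes in either direction. Without the 2 libraries this median was 0.53, against -0.01 over all genes.

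Klf4 averaged 128 ± 143 CPM in the KO and 73.8 ± 69.0 CPM in wild type (log2 fold change 1.01, SE 0.452, edgeR adjusted p = 0.386), and the arms overlapped. The value without the untreated KO library labelled male was 0.41, and without the KO ACTH library labelled female 0.50. The 6 other members had differences close to or under their SE, namely Klf2 0.21 (SE 0.279), Klf3 0.21 (SE 0.241), Klf9 0.18 (SE 0.221), Klf10 -0.15 (SE 0.27), Klf13 -0.10 (SE 0.166) and Klf16 0.35 (SE 0.337).

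**Figure D3:**
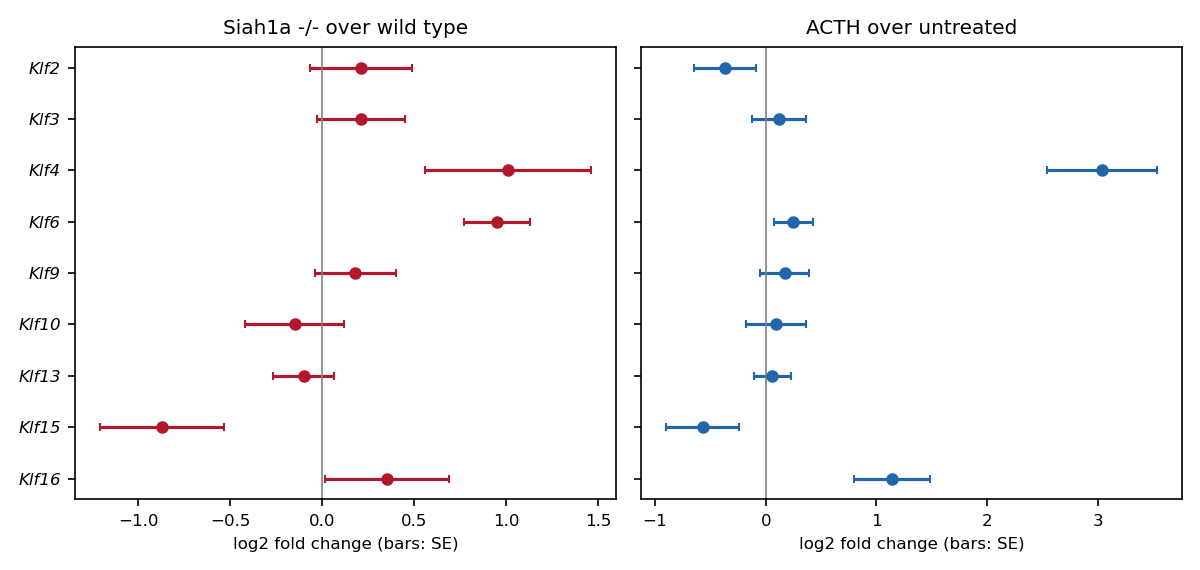
Log2 fold changes of the 9 genes with their SE, for KO over wild type (left) and ACTH over untreated (right), averaged over the other factors. Klf6 (0.95) and Klf15 (-0.87) lie farthest from 0 against their SE on the left, and Klf4 (3.04) and Klf16 (1.14) on the right.

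The third question was whether ACTH acted differently in the KO. The interaction of genotype and ACTH, the test of that difference, passed for 0 of the 9 and for 0 of all 15361 genes in edgeR (1.84% of all genes and 0 of the 9 had an unadjusted p under 0.05), for 0 of the 9 in limma-voom and for 0 of the 9 in DESeq2, which called 0.0521% of all genes. The log2 fold change of Klf4 after ACTH was 2.79 (SE 0.744) in the KO and 3.26 (SE 0.727) in wild type, an interaction of -0.47 (SE 0.967). The KO value was 1.44 without the KO ACTH library labelled female, 1.85 without the untreated KO library labelled female and 3.87 without the untreated KO library labelled male. DESeq2 called Klf4 in both genotypes (adjusted p = 0.00788 in the KO and 0.00183 in wild type), along with 0.254% and 0.224% of all genes called higher there (0.638% and 0.251% in either direction). edgeR called 0 of all genes in both, and at an unadjusted p under 0.05 took 2 of the 9 in the KO (Klf4 and Klf6, against 4.22% of all genes) and 1 of the 9 in wild type (Klf4, against 2.56%). For Klf16 the values were 1.16 (SE 0.534) in the KO and 1.12 (SE 0.535) in wild type, an interaction of 0.04 (SE 0.757). For both genes the SE of the interaction was larger than the interaction itself.

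Klf6 had a log2 fold change after ACTH of 0.54 (SE 0.222) in the KO and -0.04 (SE 0.222) in wild type, an interaction of 0.58 (SE 0.314, unadjusted p = 0.11, edgeR adjusted p = 1). Set the other way, the KO was higher by 1.24 (SE 0.225, edgeR adjusted p = 0.262, DESeq2 adjusted p = 5.96e-05) after ACTH and by 0.66 (SE 0.223, edgeR adjusted p = 0.892) untreated. edgeR called 0 of the 9 in both, against 0.00651% of all genes after ACTH and 0 untreated. At an unadjusted p under 0.05 Klf6 was the 1 member of 9 in each, against 8.23% of all genes after ACTH and 4.84% untreated, and DESeq2 called 1.12% of all genes higher after ACTH (3.46% in either direction). Untreated, DESeq2 called 0 of the 9, against 0.28% of all genes called higher and 0.716% in either direction, and limma-voom called 0 of the 9 after ACTH, against 0.0846% of all genes. Klf15 had -0.83 (SE 0.488) in the KO and -0.31 (SE 0.488) in wild type, an interaction of -0.52 (SE 0.692). The KO value was -0.19 without the untreated KO library labelled female and -1.32 without the untreated KO library labelled male. The fitted wild-type value was 0.89 without the 2 libraries with kidney or liver transcripts and 0.63 without the kidney one alone. In both fits untreated wild type was 1 gland, labelled female (32.3 CPM), so these values depend on the sex label term. Without both libraries the only wild-type ACTH gland was labelled male (31.1 CPM). The KO pair ratios after ACTH lay apart from the wild-type ones for Klf3, Klf6, Klf9 and Klf10. The share of all genes with such a split was not computed. Of the 9, only Klf10 had both KO ratios above 1 and both wild-type ratios below 1. Its level was 1.05 and 1.77 times the untreated one in KO glands after ACTH, and 0.719 and 0.924 times in wild-type glands. Its interaction of 0.80 (SE 0.49) had an unadjusted p of 0.146 and did not pass (edgeR adjusted p = 1). The Klf10 value of 1.77 came from the KO ACTH gland labelled female, at 53.9 CPM, while the other 3 KO glands lay between 28.4 and 30.4 CPM. The remaining members, Klf2, Klf3, Klf9 and Klf13, had interactions of -0.37 to 0.17.

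**Figure D4:**
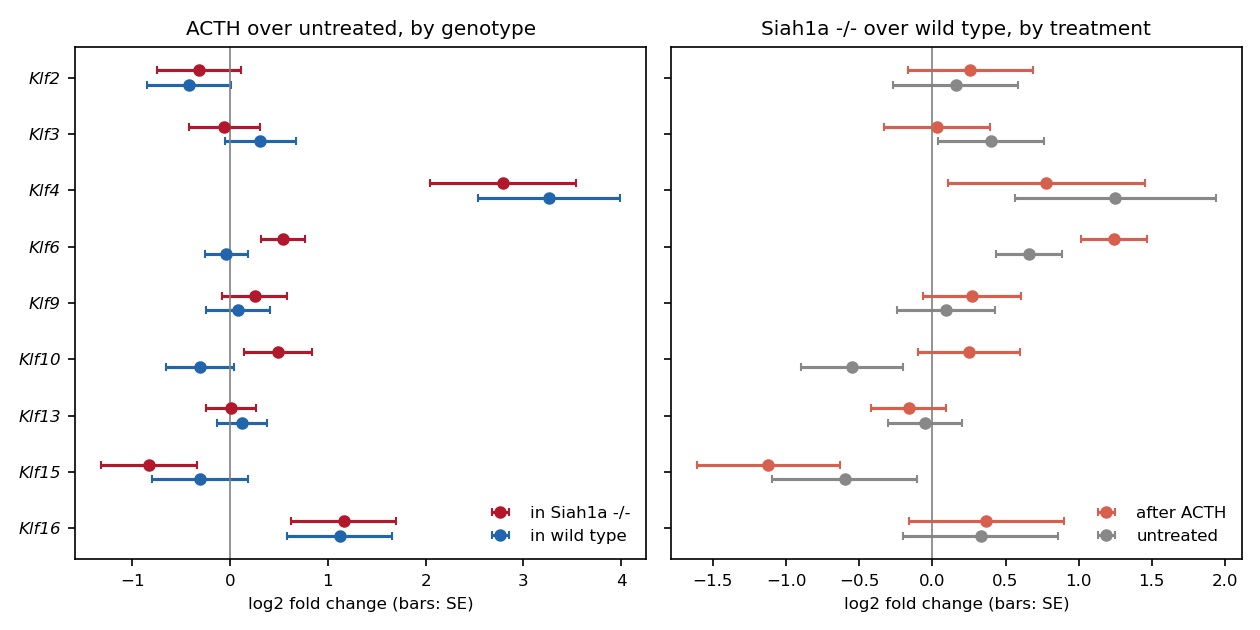
Log2 fold changes with their SE for ACTH over untreated in KO (red) and in wild type (blue) on the left, and for KO over wild type after ACTH (orange) and untreated (grey) on the right. Klf4 lies at 2.79 and 3.26 on the left; Klf6 lies at 1.24 and 0.66 on the right; the SE bars of the 2 colours overlap for 7 of the 9 genes and do not for Klf6 and Klf10.

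The KO ACTH gland labelled female held the highest level of Klf4, Klf9, Klf10 and Klf16 of all 8. It also held the highest summed level of endothelial markers, 828 CPM against 456 to 744 CPM in the others, and of adipocyte markers, 5115 CPM against 1821 to 4502 CPM. Among the 4 ACTH libraries the endothelial sums were 530 and 828 CPM in the KO and 744 and 520 CPM in wild type (labelled male, then female), and Klf4 stood at 107, 335, 136 and 131 CPM in the same order. Over treatment these sums overlapped, at 520 to 828 CPM after ACTH and 456 to 623 CPM untreated. The 9 fibroblast and capsule markers summed to 648 and 1564 CPM in KO glands and 1766 and 1471 CPM in wild-type glands given ACTH, against 859 and 1035 CPM in KO glands and 848 and 708 CPM in wild-type glands untreated. Thus 3 of 4 ACTH glands were above all untreated ones, and the exception, KO labelled male, had the lowest Klf4 of the ACTH glands. In it and in the wild-type untreated gland labelled male, Gli1 of that list was at 0. Smooth muscle and pericyte markers summed to 545 CPM in the untreated KO gland labelled male, the untreated gland with the most Klf4, and to 183 to 330 CPM in the other 7. In most libraries, 5 of 8, Cnn1 of that list was at 0. The part of these cell types in the Klf levels was not tested.

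Among the relatives, Klf11, a TGF-beta-inducible repressor close to Klf10, stood at 44.5 and 31.3 CPM in KO glands given ACTH and 17.5 and 22.7 CPM in untreated KO glands, against 20.5 and 19.9 CPM after ACTH and 17.1 and 20.1 CPM untreated in wild type. Only the 2 KO glands given ACTH were above 22.7 CPM. It did not pass (log2 fold change 0.51 in the KO and 0.52 after ACTH on average). Of the 4 tested genes among the other Klf genes, 0 passed in either comparison. Of the 9 Sp genes, 6 were tested and 0 passed, and the most abundant were Sp3, at 148 ± 17.6 CPM in the KO and 136 ± 30.5 CPM in wild type, and Sp1, at 82.4 ± 20.6 CPM in the KO and 103 ± 9.20 CPM in wild type.

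Of 10 cofactors of Klf proteins 0 passed, with median log2 fold changes of 0.06 in the KO and -0.04 after ACTH. Hdac2, a histone deacetylase of the Sin3 complex, averaged 157 ± 22.8 CPM in the KO and 150 ± 8.22 CPM in wild type, and the corepressor Ctbp1 144 ± 12.8 CPM in the KO and 152 ± 9.47 CPM in wild type. Of 7 genes of Klf protein turnover 0 passed, with medians of 0.08 in the KO and -0.11 after ACTH (0.05 without the 2 libraries with kidney or liver transcripts), and the most abundant were the ubiquitin ligases Wwp1 (170 ± 18.6 CPM in the KO and 165 ± 45.8 CPM in wild type) and Itch (107 ± 26.8 CPM in the KO and 104 ± 3.92 CPM in wild type). For 10 endothelial genes known as targets of Klf2 and Klf4 the medians were -0.21 in the KO and 0.44 after ACTH, with 0 passing. Over all genes the medians were -0.04 and 0.02. The list was not split by the direction in which Klf2 and Klf4 act on each gene. Without the 2 libraries with kidney or liver transcripts its median after ACTH was 0.15. At an unadjusted p under 0.05, edgeR took 0 of the 10 in the KO, against 13.4% of all genes. After ACTH it took 1, Ptprb (higher, unadjusted p = 0.00446), against 6.11%. The most abundant of the 10 were Plpp3, at 428 ± 109 CPM after ACTH and 503 ± 120 CPM untreated, and Ptprb, at 98.9 ± 16.1 CPM after ACTH and 65.6 ± 8.56 CPM untreated.

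Targets of the glucocorticoid receptor were looked at because Klf9 and Klf15 are among its known targets. Of 10 others, 0 passed; 9 had a higher fitted mean after ACTH, with a median log2 fold change of 0.58 against 0.02 over all genes, while Klf9 stood at 0.17 and Klf15 at -0.57. At an unadjusted p under 0.05, 4 of the 10 were higher after ACTH, against 6.11% of all genes in either direction. In the KO, 8 of the 10 had a higher fitted mean, with a median of 0.42 against -0.04 over all genes, and 3 of the 10 had an unadjusted p under 0.05, against 13.4% of all genes. Without the 2 libraries with kidney or liver transcripts the medians were 0.65 after ACTH and 0.58 in the KO. The most abundant were the kinase Sgk1, at 354 ± 132 CPM after ACTH and 227 ± 51.8 CPM untreated, and Tsc22d3 (GILZ), at 164 ± 55.9 CPM after ACTH and 195 ± 41.3 CPM untreated. For 10 TGF-beta early genes, set beside Klf10, the medians were 0.10 in the KO and 0.21 after ACTH, with 0 passing. Skil, a Smad corepressor, averaged 145 ± 45.2 CPM after ACTH and 111 ± 3.02 CPM untreated, and the receptor Tgfbr2 115 ± 13.9 CPM after ACTH and 109 ± 15.6 CPM untreated.

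The genes whose log2 CPM ran most like each member over the 8 libraries, among all tested genes with a mean log2 CPM of at least 1, are given by Pearson correlation as a description. Nearest to Klf4 were Fbxo34 (0.963), Rbm15 (0.963) and the polo-like kinase Plk3 (0.962). Plk3 stood at 31.1 and 36.9 CPM in KO glands given ACTH and 15.9 and 2.92 CPM in untreated KO glands, against 22.7 and 27.7 CPM after ACTH and 3.18 and 3.12 CPM untreated in wild type. As for Klf4, the KO gland labelled male was the highest of the untreated ones. Nearest to Klf16 were Pip5k1a (0.992), the MAP kinase phosphatase Dusp4 (0.986) and the splicing regulator Ptbp1 (0.981). Nearest to Klf6 were Nsfl1c (0.977), Tinagl1 (0.977) and Napb (0.970), and to Klf15 the demethylase Kdm1b (0.980), the mitochondrial carrier Slc25a10 (0.974) and Fuom (0.966). Klf9 was nearest to Irak1bp1 (0.981), Klf13 to Thrap3 (0.970), Klf2 to Cahm (0.970), Klf3 to Mrpl15 (0.959) and Klf10 to the WNT inhibitor Dkk2 (0.955). The libraries share groups, depth and, for 2 of them, transcripts of other organs.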

How the data were processed

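RNA was sequenced from 8 mouse adrenal glands. Per the labels' protocols, TRIzol RNA was copied to cDNA from oligo-dT and random primers, made into directional NEBNext Ultra libraries and sequenced as single reads. The submitters' processing notes name FastQC (0.11), TopHat2 (2.0.13), Bowtie2 (2.2.5.0), Partek (6.6) and mm10. Per the file headers, the authors deposited raw counts per RefSeq transcript, which are estimated counts since many are not whole, and RPKM values. Counts were summed per gene symbol (28678 transcripts, 18846 genes) and rounded. The deposited RPKM values were summed per symbol and used only to compare genes with each other.

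Genes were kept by filterByExpr (minimum count 10), leaving 15361, and scaled by TMM factors (0.888 to 1.06). edgeR 4.0.16 (R 4.3.3) fitted genotype, treatment and sex label (4 residual degrees of freedom), or these with an interaction (3), with Benjamini-Hochberg adjustment over all genes; SEs come from the F statistic. Alternatives were RLE factors, no filter, DESeq2 1.42.0, limma-voom 3.58.1, no sex label, the interaction model for averages, the most abundant transcript, leaving out each library, and leaving out the 2 with kidney or liver transcripts; the list values without these 2 were added after seeing the data. No 2 libraries agreed within sampling noise. Low values are limited by counting error, and 3 counts equal 0.115 to 0.353 CPM. Scripts were tested on simulated data. The members, the gene lists, the motifs and the alternatives were chosen with earlier results of these data known. The 4 members with an unadjusted p under 0.05 in an average comparison were followed through the other comparisons, a choice made after values were seen. From each list the 2 most abundant members are named, since none was called, and Klf11, Plk3, Gpt2 and the unadjusted p of Ptprb were picked out after their values were seen. Promoters are RefSeq windows of GRCm38.p6, the assembly of mm10, and overlaps come from GENCODE M21.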

Additional observations from a re-analysis of the deposited data

Results flagged for a closer look

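In 36 sets of 4 libraries (9 genes, each in the KO, wild-type, ACTH and untreated libraries), 4 held a library whose gap to its nearest neighbour was too large a part of the range for 4 values (Dixon's 95% limit); chance alone flags about 1 set in 20. The KO ACTH library labelled female was far above the other 3 ACTH libraries for Klf4, at 335 CPM against 107 to 136 CPM (gap over range 0.875). It was also far above the other 3 KO libraries for Klf10, at 53.9 CPM against 28.4 to 30.4 CPM (0.923). The untreated KO library labelled male was far above the other 3 untreated libraries for Klf4, at 52.0 CPM against 11.3 to 16.9 CPM (0.861). It was likewise above the other 3 KO libraries for Klf2, at 42.8 CPM against 21.4 to 24.3 CPM (0.865).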

How the results depend on the processing

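With 2 animals a group, 4 and 3 residual degrees of freedom limit every test, and the tools differ: edgeR called 0 of the 9 in each of the 7 comparisons. DESeq2 called 1 in 5 of them (Klf6 in the KO on average and after ACTH; Klf4 for ACTH on average, in the KO and in wild type), and limma-voom called 1 (Klf6, KO on average). Leaving out a library left 1 library in its group, so for those fits no p-value of a member is given. The cause of the differences between tools was not tested. Of 588 single-gene values under alternatives, 552 kept sign and side of the threshold, 8 newly passed (in DESeq2, in limma-voom or with a library left out) and 28 changed sign. As none of the 9 passed in the main fits, keeping the side meant not passing. All 9 were followed in the averages, but only Klf4, Klf6, Klf15 and Klf16 in the other comparisons, so the Klf10 interaction was not among these values. Without the kidney and liver libraries Klf3 was at -0.06 for ACTH on average, and Klf15 at 0.89 for ACTH in wild type and 0.34 for KO untreated. These 2 Klf15 values rest on 1 untreated wild-type gland and depend on the sex label term. In limma-voom Klf15 was at 0.04 for ACTH in wild type. Over single libraries left out, sign changes came within these log2 ranges. For KO on average they were -0.44 to 0.07 (Klf10) and -0.21 to 0.05 (Klf13). For ACTH on average they were 0 to 0.27 (Klf3), -0.19 to 0.31 (Klf10) and -0.08 to 0.17 (Klf13), and for ACTH in wild type -0.24 to 0.19 (Klf6) and -0.98 to 0.63 (Klf15). For KO untreated they were -0.01 to 2.01 (Klf4), -1.33 to 0.29 (Klf15) and -0.04 to 0.73 (Klf16), and for KO after ACTH -0.75 to 1.65 (Klf4) and -0.01 to 0.75 (Klf16). For the interaction they were -1.89 to 0.63 (Klf4), -1.42 to 0.19 (Klf15) and -0.36 to 0.43 (Klf16). Among all genes, edgeR called 4 for KO on average (no filter 41, DESeq2 947, limma-voom 108, no sex label 1, most abundant transcript 1, single libraries left out 0 to 253) and 3 for ACTH on average (no filter 8, DESeq2 123, most abundant transcript 1, single libraries left out 0 to 23, and 0 with no sex label, with the interaction model and without the kidney and liver libraries). It called 1 for KO after ACTH (no filter 11, DESeq2 501, limma-voom 13, without the kidney and liver libraries 21, single libraries left out 0 to 173, and 0 with no sex label and with the most abundant transcript). It called 0 for ACTH in the KO (DESeq2 98, without the kidney and liver libraries 2), ACTH in wild type (no filter 7, DESeq2 37, limma-voom 3, single libraries left out 0 to 70), KO untreated (DESeq2 110, single libraries left out 0 to 95) and the interaction (DESeq2 8, without the kidney and liver libraries 2, single libraries left out 0 to 11). No paired analysis was possible because the labels give no replicate number shared between groups; the sex label, 1 of each per group, served as the blocking term of the models. Without it, and so without the label that went against Xist, Klf6 was at 0.97 and Klf15 at -0.79 in the KO on average, and Klf4 at 2.97 and Klf16 at 1.14 after ACTH on average.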
